A study of Mus musculus with 5 samples.

Results

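The sites described here are promoter regions bound in common by SOX11 and SOX4 in mouse keratinocytes. A site was a SOX11 peak that overlapped a SOX4 peak by at least 1 bp and whose centre lay from 1 kb upstream to 100 bp downstream of the start of a protein-coding transcript. Of 21270 SOX11 peaks, 525 met this rule, and they lay in the windows of 569 of the 22380 annotated protein-coding genes (2.54%). Of the 4629 SOX11 peaks in such windows, 11.3% overlapped a SOX4 peak, and the other 4104 are called SOX11-only promoter sites below. Over all SOX11 peaks the share was 11.9%, and 1997 of the 2522 shared peaks lay outside promoters. The sites were selected on the overlap with SOX4 and on the place in the window, so neither is a finding.

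Chromatin immunoprecipitation and sequencing (ChIP-seq) was performed on primary keratinocytes from newborn mice of the genotype Krt14-Cre;Sox11fl/fl;Sox4fl/fl, given as a mixed 129SvEx:C57BL/6 background in the labels. The floxed line was crossed with Krt14-Cre mice of FVB/N stock, so the cells may carry that background too. The study gives the floxed line as lacking *Sox12* as well, and the genotype given for these cells does not name *Sox12*. Krt14-Cre is active in basal keratinocytes and deletes both floxed *Sox* genes there, in the control cells too. The cells of the SOX11-FLAG and SOX4-FLAG groups carried a lentiviral vector that expresses *Sox11* or *Sox4* with a triple FLAG tag when doxycycline is added, and they were fixed with 1% formaldehyde after 24 h of doxycycline. There were 2 SOX11-FLAG samples, 2 SOX4-FLAG samples and 1 control sample, an input library whose antibody is given as IgG. Each factor has 1 list of peaks, attached to the first of its 2 samples, and whether a list was called on that sample alone or on both is not given in the sources used here. No site therefore has a value in each replicate, and a shared site is one found in both lists, not one seen in every sample. The proteins were induced and tagged, and the lists show where they bound in that setting. The lists hold positions only, with no height or depth, and a peak was 258 bp wide for SOX11 and 340 bp wide for SOX4 in most cases.

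SOX4 and SOX11, with SOX12, form the SoxC group of the SRY-related family. Their HMG box, the DNA-binding domain, sits in the minor groove of short A/T-rich words and bends the helix. SoxC factors act in progenitor cells of the nervous system, heart, skeleton and skin. Many mammalian promoters are CpG islands, stretches rich in G, C and the dinucleotide CpG in which binding sites for SP/KLF, ETS, NRF1, NFY and YY1 are common, whereas enhancers of keratinocytes often carry AP-1 words, the sites of FOS and JUN dimers.

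The word searched for as the SOX core was CATTGT or CTTTGT on either strand. The lines below show 30 bases of mm9 around the core nearest to the SOX11 centre, 5′ to 3′ on the strand of the gene, with SOX cores in capitals. They are shown because they let the cores, their direction and their flanks be read side by side. A core that reads ACAAAG or ACAATG points against the gene. The first 9 come from the 12 sites earliest in the SOX11 list, leaving out those whose core lies in or by an exon, *Limd2* is a signature target of the study, *Plcg1* has its core on the centre of the site, and *Cldn4* is a site that also holds an AP-1 word.
Mtf2: taaagagtccctCTTTGTtcagcgctggtc
Khdrbs1: gcccgagcgcagACAAAGacattccacggc
Cdk2ap1: gcccaggccgctCTTTGTctggcatggggg
Fam36a: ccctctaagaggACAAAGcggcgcgcgacg
Etv6: tcgccgcgcagaACAAAGgcCATTGTctcg
Zfp553: ctccgagctgggCTTTGTttcccccgcctc
Ccng2: ctccttccagttCTTTGTtcagtctcgaga
Pdia4: agggctggttgcCTTTGTtctcccccgcac
Mboat2: ggcgctgcaactCTTTGTctggccgccacc
Plcg1: ccccaggagcgtCTTTGTtcccggcgcgct
Limd2: agcaagggaaagACAAAGcacagagggggg
Cldn4: gcctctgaacgcCTTTGTtggcccaagctc

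The cores of *Mtf2* (chr5:108494590-108494619), *Ccng2* (chr5:93697173-93697202) and *Plcg1* (chr2:160557362-160557391) are each followed by a T and a C, the word CTTTGTTC. That word was the one that most set the shared sites apart among all words of 8 letters, with 95 of 525 shared sites (18.1%) against 122 of 4104 SOX11-only promoter sites (2.97%). Next in rank were AACAAAGG at 14.3% against 2.39% and AACAAAGA at 12.2% against 2.24%, which read CCTTTGTT and TCTTTGTT on the other strand. All 20 words at the top of this ranking hold at least 4 letters in a row of a SOX core, and the ranking is a description of these sites, with no test.

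3 whole sites show how cores can be arranged, with SOX and AP-1 words in capitals. The site at *Mboat2*, an acyltransferase of membrane phospholipids (chr12:25515867-25516124, + strand), holds 4 SOX cores, the highest number found. The site at *Etv6*, an ETS family repressor (chr6:133985178-133985435, + strand), holds 3, of which the central pair points in opposite directions. The site at *Nr1d1*, the circadian repressor REV-ERBα (chr11:98637184-98637441, − strand), holds a facing pair of SOX cores and an AP-1 word.
Mboat2: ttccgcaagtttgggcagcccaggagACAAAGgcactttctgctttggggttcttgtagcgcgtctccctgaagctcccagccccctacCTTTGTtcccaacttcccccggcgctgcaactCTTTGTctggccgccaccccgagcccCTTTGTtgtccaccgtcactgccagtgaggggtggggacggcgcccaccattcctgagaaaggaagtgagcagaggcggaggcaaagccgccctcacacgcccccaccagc
Etv6: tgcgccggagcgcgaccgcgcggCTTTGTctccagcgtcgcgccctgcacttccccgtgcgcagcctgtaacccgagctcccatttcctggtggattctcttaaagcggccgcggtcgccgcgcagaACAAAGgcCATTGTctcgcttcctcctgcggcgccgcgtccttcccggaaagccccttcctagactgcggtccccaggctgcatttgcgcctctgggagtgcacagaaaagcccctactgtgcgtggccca
Nr1d1: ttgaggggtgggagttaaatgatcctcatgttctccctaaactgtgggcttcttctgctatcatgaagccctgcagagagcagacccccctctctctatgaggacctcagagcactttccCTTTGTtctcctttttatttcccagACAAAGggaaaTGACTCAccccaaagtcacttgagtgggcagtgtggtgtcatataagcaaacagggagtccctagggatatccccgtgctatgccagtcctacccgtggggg

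Over the whole SOX11 list, a SOX core separated the shared from the SOX11-only promoter sites by the largest odds ratio of the features tested, though not within its first 2127 peaks, where the E-box, NRF1, CRE and NFY words had larger ones. It was present in 402 of 525 shared promoter sites (76.6%, 95% Wilson interval 72.8 to 80.0) and in 1309 of 4104 SOX11-only promoter sites (31.9%, interval 30.5 to 33.3). The odds ratio was 6.98 (95% interval 5.64 to 8.63, adjusted Fisher p = 7.02e-85 from a two-tailed exact test, with Benjamini-Hochberg adjustment over 18 tests). As background, 20.2% of windows of the same length centred on the outermost start of each gene held a core. These intervals and p-values take sites as the unit and cover counting error alone, since sites are not replicates of the experiment. CTTTGT was the commoner word, in 343 shared sites (65.3%), against 94 (17.9%) with CATTGT, and 35 sites held both. Among the 518 cores counted over all shared sites, 419 were CTTTGT.

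Sites with 2 or more cores numbered 99 among the shared (18.9%) and 198 among the SOX11-only promoter sites (4.82%), a difference that was not tested. In detail, 303 shared sites held 1 core, 85 held 2, 11 held 3, 3 held 4 and 123 held none. The 3 sites with 4 cores were at *Mboat2*, *Pdia3*, a disulfide isomerase of the endoplasmic reticulum, and *Acot1*, a cytosolic acyl-CoA thioesterase. Among sites with exactly 2 cores, 54 had both in the same direction and 31 in opposite directions.

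The cores lay close to the peak centres. The core nearest to the SOX11 centre was a median of 9 bp away (quartiles 4 and 19) over the 402 shared sites with one, and 335 of them (83.3%) had a core within 25 bp. At the SOX11-only promoter sites with a core the median was 24 bp (quartiles 8 and 53). Within 25 bp of the centre the density was 13.6 cores per kb at shared sites and 3.37 at SOX11-only promoter sites, and from 100 to 125 bp it was 0.838 and 0.687. The same cores lay a median of 17 bp from the SOX4 centre, with 247 of 402 within 25 bp. Only the SOX11 peak was searched, which bounds these distances. The SOX4 centre lay a median of 27 bp from the SOX11 centre, and 318 SOX11 peaks lay wholly within the SOX4 peak. In 497 of 525 sites the SOX4 centre fell in a promoter window of the same gene.

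**Figure D1:**
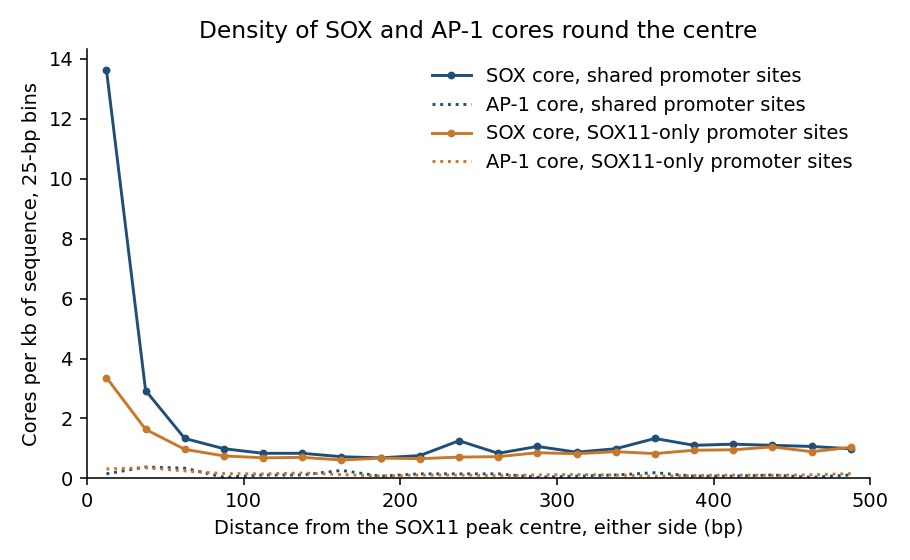
SOX cores (solid lines) and AP-1 cores (dotted lines) per kb of sequence, by distance in bp from the SOX11 peak centre to either side in bins of 25 bp, for the shared (blue) and SOX11-only (orange) promoter sites. The blue SOX line starts at 13.6 cores per kb and the orange at 3.37, and the lines come together beyond about 100 bp.

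The place in the SOX11 list moved with both properties. Shared promoter sites had a median list number of 1469 (quartiles 550 and 4792) and SOX11-only promoter sites of 10482 (quartiles 6480 and 14539). The lists carry no score, and what orders them is not given in the sources used here. With the list cut into 10 equal blocks of 2127 peaks, 306 of 482 promoter peaks were shared in block 1 and 13 of 553 in block 5. Within block 1 a core was present in 90.5% of the shared and 84.1% of the SOX11-only promoter sites, an odds ratio of 1.81 (interval 1.04 to 3.15, adjusted Fisher p = 0.146). In block 2 the shares were 85.9% and 61.5%, in block 3 80.6% and 47.4%, and from block 5 onward they were at most 33.3% of shared and 26.5% of SOX11-only promoter sites. The shared sites in blocks 5 to 10 numbered 80 in all, and their intervals spanned those of the SOX11-only sites.

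**Figure D2:**
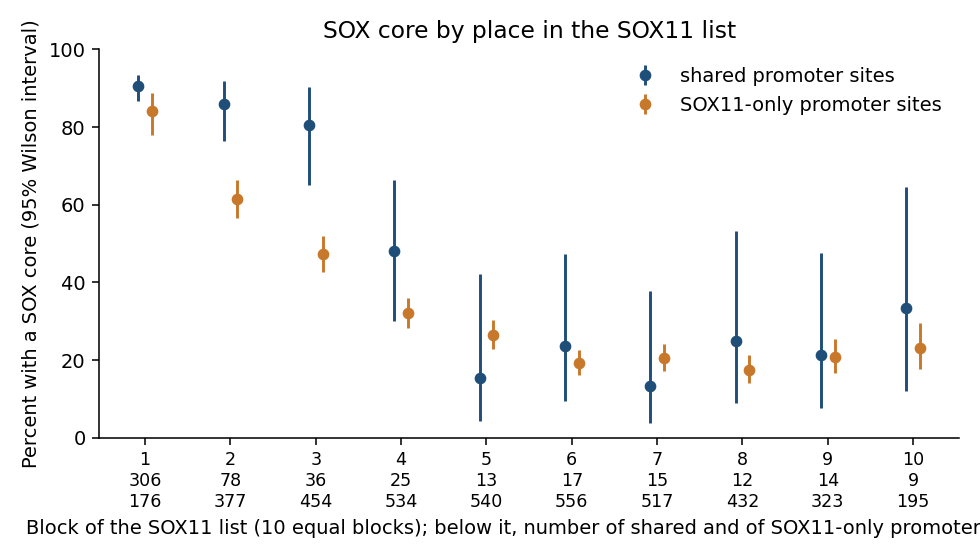
Percent of promoter sites with a SOX core in each of 10 equal blocks of the SOX11 list, with 95% Wilson intervals, for the shared (blue) and SOX11-only (orange) sites. Both fall from 90.5% and 84.1% in block 1 to 15.4% and 26.5% in block 5, with no steady fall in later blocks. The number of shared sites goes from 306 in block 1 to 9 in block 10.

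The 123 shared sites with no core had a median list number of 8696, against 1142 for the 402 with one. They lay nearer to starts, with a median of −34 bp against −102.5 bp, where negative values are upstream. An ETS core (CCGGAAG) was found in 33 of the 123 (26.8%) and in 44 of the 402 (10.9%), and 82.9% against 69.2% were CpG-rich. These splits were made after the cores were counted and carry no test.

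AP-1 words were rare at promoter sites of both kinds and commoner at the shared sites elsewhere. TGACTCA or TGAGTCA was present in 26 of 525 shared promoter sites (4.95%) and in 238 of 4104 SOX11-only promoter sites (5.80%), an odds ratio of 0.85 (interval 0.56 to 1.28, adjusted Fisher p = 0.671). Of the 1997 shared sites outside promoters, 609 held it (30.5%), an odds ratio of 0.12 for promoters against outside (interval 0.08 to 0.18, adjusted Fisher p = 2.27e-40). Of the 258-bp windows centred on all starts, 3.33% held it. Base composition moved with this difference. Among CpG-rich sites the shares were 2.89% of 380 in promoters and 2.16% of 231 outside (adjusted Fisher p = 0.842), and among the others they were 10.3% of 145 and 34.2% of 1766 (adjusted Fisher p = 2.20e-09). Of the 26 shared promoter sites with an AP-1 word, 22 also held a SOX core. The earliest 5 in the list were at *2310079F23Rik*, *2010002N04Rik*, *Nr1d1*, *Atg9b* and *Cldn4*, a tight-junction claudin whose site, centred 114 bp upstream of the start, holds 2 AP-1 words.

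SOX cores were less frequent at the shared sites in promoters than at those outside, 76.6% against 85.4% (odds ratio 0.56, interval 0.44 to 0.71, adjusted Fisher p = 1.07e-05). The difference did not pass the threshold within either class of base composition: 73.2% against 77.5% of CpG-rich sites (adjusted Fisher p = 0.481) and 85.5% against 86.5% of the others (adjusted Fisher p = 0.868).

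Of 9 further motifs, 1 separated the shared from the SOX11-only promoter sites. The ETS core was present in 14.7% of the shared and 19.5% of the SOX11-only sites (odds ratio 0.71, interval 0.55 to 0.91, adjusted Fisher p = 0.0231). It was in 10.5% of the 258-bp windows centred on all starts. Within block 1 of the list it was in 10.8% and 11.4% (adjusted Fisher p = 0.880). With only 50 bp to each side of the centre searched, ETS did not pass (7.43% against 10.0%, adjusted Fisher p = 0.138), and the SP/KLF word GGGCGG did, in 178 of the shared (33.9%) and 1725 of the SOX11-only sites (odds ratio 0.71, interval 0.58 to 0.86, adjusted Fisher p = 0.00153). The CRE word TGACGTCA was in 1.33% and 3.05% (adjusted Fisher p = 0.0642). Over whole peaks the SP/KLF word was the commonest of the 9, in 65.0% and 66.7% (adjusted Fisher p = 0.671) and in 43.9% of the 258-bp windows on all starts. The TEAD word GGAATG was in 10.9% and 10.2%, the NFY words CCAATCA or CCAATGA in 9.90% and 9.11%, and the E-box CACGTG in 9.14% and 9.38%. The YY1 word AAGATGGC was in 4.19% and 6.19%, the NRF1 word GCATGCGC in 3.24% and 3.95%, and the TATA word TATAAA in 2.86% and 4.17%, and none of TEAD, NFY, E-box, YY1, NRF1 and TATA passed the threshold. TATAAA was in 9.54% of the 258-bp windows on all starts. Those windows are centred on the start, whereas the sites were spread over the promoter window. Within block 1 of the list the E-box was in 12.4% of the shared and 5.11% of the SOX11-only sites (odds ratio 2.63, interval 1.24 to 5.58, adjusted Fisher p = 0.0610) and the NFY words in 13.7% and 6.82% (odds ratio 2.17, interval 1.11 to 4.25, adjusted Fisher p = 0.108), ratios above the 1.81 of the SOX core there, with intervals that overlap its own. The rarer NRF1 word was there in 13 shared and 3 SOX11-only sites (odds ratio 2.56, adjusted Fisher p = 0.421) and the CRE word in 4 and 1 (odds ratio 2.32, adjusted Fisher p = 0.845). Each word was searched on both strands, and a match is only the presence of those letters.

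**Figure D3:**
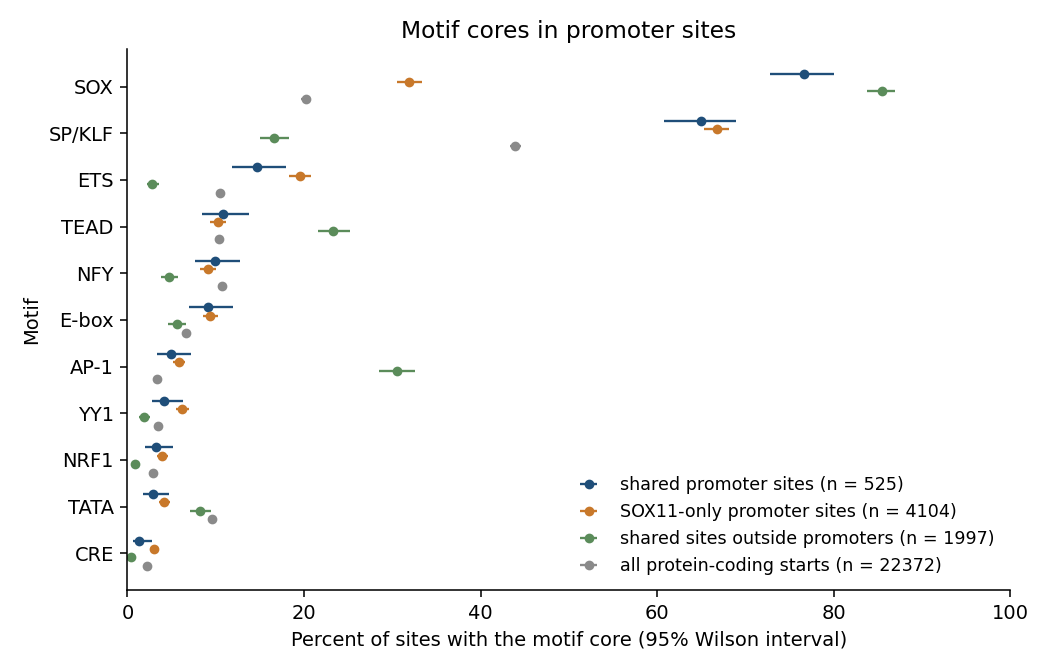
Percent of 258-bp sites that hold each of 11 motif cores, with 95% Wilson intervals, in the shared promoter sites, the SOX11-only promoter sites, the shared sites outside promoters and windows on all protein-coding starts. The shared promoter sites stand above the SOX11-only ones for SOX, at 76.6% against 31.9%, and below them for ETS, at 14.7% against 19.5%, and the sites outside promoters lead for AP-1 with 30.5%.

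CpG content did not separate the shared from the SOX11-only promoter sites. Taking 500 bp around the centre, a site was called CpG-rich at 55% G and C or more and an observed over expected CpG ratio of at least 0.6. This held for 380 shared sites (72.4%, interval 68.4 to 76.0) and 2978 SOX11-only promoter sites (72.6%), with an odds ratio of 0.99 (interval 0.81 to 1.21, adjusted Fisher p = 0.937). It held for 45.0% of all protein-coding starts and for 11.6% of the shared sites outside promoters. The median G and C content was 62.8% at both kinds of promoter site and ran from 40.2% to 82.0% over the shared ones. The SOX core was found in 73.2% of the CpG-rich and 85.5% of the other shared sites, and in 745 of 2978 and 564 of 1126 SOX11-only sites of the same classes, so it separated shared from SOX11-only sites within each (odds ratios 8.17 and 5.88, adjusted Fisher p = 1.05e-73 and 6.36e-16). The CpG-rich site with the highest G and C content among those named here was at *Tmeff1* (80.2%), and the poorest named site was at *Hist1h2bh* (40.2%).

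The shared sites lay somewhat farther upstream than the SOX11-only ones. Their centres were a median of 85 bp upstream of the nearest start (quartiles 246 and 8 bp upstream), against 53 bp. Within 100 bp of a start lay 284 of 525 shared sites (54.1%) and 2670 of 4104 SOX11-only sites (65.1%), an odds ratio of 0.63 (interval 0.53 to 0.76, adjusted Fisher p = 7.91e-06). In block 1 of the list the direction turned, with 51.0% and 47.2% (odds ratio 1.17, adjusted Fisher p = 0.736), so this difference moved with the place in the list. Among promoter SOX11 peaks, the share that was shared was 9.49% from 100 bp upstream to the start, 9.81% downstream of it, 13.1% from 101 to 250 bp upstream, 16.7% from 251 to 500 bp and 14.3% beyond. SOX cores were in 85.1% of the 241 sites over 100 bp upstream and 69.4% of the 284 nearer ones, and CpG-rich sites made up 61.8% and 81.3%.

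**Figure D4:**
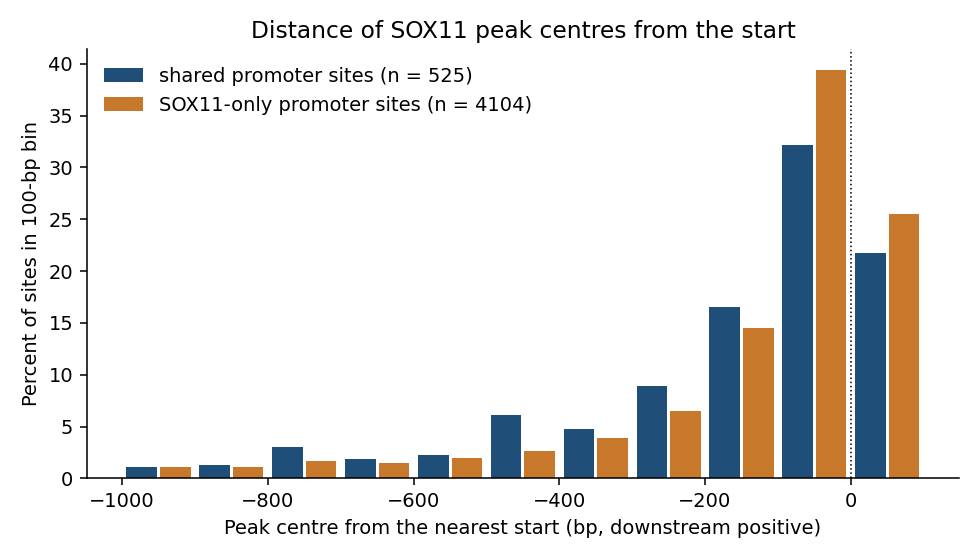
Percent of the 525 shared (blue) and 4104 SOX11-only (orange) promoter sites in bins of 100 bp by the distance of the peak centre from the nearest start, downstream positive. The bin just upstream of the start is the tallest in both, with 32.2% and 39.4%, and the blue bars are the higher ones from −900 to −100 bp.

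Upstream of the start lay 410 centres, 1 lay on it and 114 were downstream (21.7%), against 25.5% of SOX11-only sites (odds ratio 0.81, interval 0.65 to 1.01, adjusted Fisher p = 0.138). UTRs and exons were taken from transcripts of any gene, and introns from transcripts of protein-coding genes. On that basis 164 centres lay in a UTR, 93 in an intron, 27 in another exon and 241 in none of these. Starts of different genes on opposite strands were called divergent if both windows held the centre, or if they faced away from each other within 1 kb. Such a pair stood at 60 shared sites (11.4%) and 10.9% of SOX11-only sites (odds ratio 1.06, interval 0.79 to 1.41, adjusted Fisher p = 0.799), and 43 shared sites lay in the windows of 2 or more genes. Examples were *Trp53*, the tumour suppressor p53, with *Wrap53*, whose site lay 29 bp upstream of *Trp53*, *Mcm7*, a subunit of the replicative helicase, with *Ap4m1*, and *Srsf7*, a splicing factor, with *Ttc39d*. Each of the 569 genes had exactly 1 shared site.

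The SOX core tended to read along the gene. Of the 364 shared sites whose cores all pointed one way, 211 had CATTGT or CTTTGT on the strand of the gene (58.0%, interval 52.8 to 62.9, adjusted p = 0.00994, two-sided exact binomial test against 50%). The measure gave 49.1% over 1201 SOX11-only promoter sites and 50.4% over 4214 windows on all starts, and these were not tested against the shared sites. The direction varied with position. Over 100 bp upstream the cores read along the gene in 93 of 184 such sites (50.5%, interval 43.4 to 57.7), and within 100 bp in 118 of 180 (65.6%, interval 58.4 to 72.1). Of the 66 sites downstream of the start, which are part of these 180, 49 read along it (74.2%, interval 62.6 to 83.3). This split by position was made after the values were seen and carries no test. The sites of *Actb*, *Tes* and *Rps9* show the arrangement, each with a CTTTGT on the gene's strand centred 1 to 5 bp downstream of the start.

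**Figure D5:**
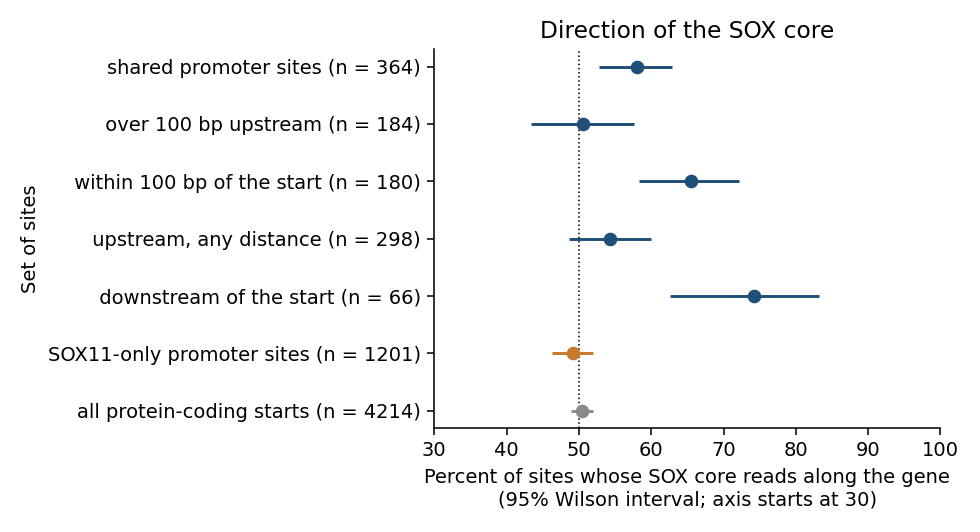
Percent of sites whose SOX cores read along the gene, with 95% Wilson intervals, for the shared promoter sites and their subsets by position (blue), the SOX11-only promoter sites (orange) and all starts (grey). The dotted line is 50%, the horizontal axis starts at 30%, and the sites downstream of the start stand highest at 74.2%.

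The 12 sites earliest in the SOX11 list, from number 2 to number 36, all held a SOX core, CTTTGT in each case nearest to the centre, and the SOX4 list gave the same regions at numbers 2 to 300. The first was *Mtf2*, a partner of Polycomb repressive complex 2, at 132 bp upstream of the start and number 2 in both lists. *Khdrbs1*, the RNA-binding protein SAM68, had its site 280 bp upstream and *Cdk2ap1*, a regulator of the kinase CDK2, 162 bp upstream. The sites of the zinc-finger genes *Zfp113* and *Zfp553* lay 13 and 60 bp upstream. *Tes*, which encodes testin, a LIM protein of focal adhesions, had its centre 8 bp downstream of the start, in the 5′ UTR, with the core 3 bp from the centre. *Plxnb1*, a semaphorin receptor, had its centre 10 bp downstream and 2 cores. *Ccng2*, the atypical cyclin G2, and *Pdia4*, a disulfide isomerase of the endoplasmic reticulum, had sites 145 and 153 bp upstream. *Fam36a*, *Etv6* and *Mboat2* had theirs 346, 411 and 468 bp upstream with 2, 3 and 4 cores. All but the *Cdk2ap1* site were CpG-rich.

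Gene groups are given by their count of genes with a shared promoter site, beside the share of all protein-coding genes (2.54%). Among the 4883 genes with any SOX11 peak in a promoter (21.8% of all), 11.7% had a shared site, and the groups are set beside that share because most lists had more SOX11-bound promoters than the 21.8%. No group was tested.

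Chromatin regulators had 8 of 56 genes with a shared site (14.3%), and these were 36.4% of the 22 with a SOX11 promoter peak. They were *Smarca2* and *Smarca4*, the alternative ATPases of the SWI/SNF remodeller, *Arid1b*, another SWI/SNF subunit, *Ezh2*, the methyltransferase of Polycomb repressive complex 2, *Brd3*, a reader of acetylated histones, *Kdm2b*, *Setd2* and *Kat2b*. The *Ezh2* site was centred 51 bp downstream of the start with 1 core against the gene, and the *Smarca2* site 789 bp upstream with a CATTGT. The *Brd3* site, centred 83 bp upstream, held 2 cores. *Kdm2b* had its core 2 bp from the centre of a site 119 bp upstream, and at *Arid1b* the centre lay 732 bp upstream.

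The actin cytoskeleton and migration list had 6 of 76 annotated genes (7.89%), or 19.4% of its 31 with a SOX11 promoter peak. These were *Tes*, *Actb*, cytoplasmic β-actin, *Cfl1*, the filament-severing cofilin, *Fblim1*, a filamin-binding LIM protein, *Tmsb10*, a thymosin that binds actin monomers, and *Cdc42*, the GTPase of filopodia. Several sites lay close to the start, with *Actb* at 5 bp downstream, *Cfl1* at 5 bp upstream with a CATTGT at the very centre, *Fblim1* at 6 bp downstream and *Tmsb10* at 74 bp downstream. The *Tmsb10* site had no core. Of the integrin, laminin and hemidesmosome genes, 1 of 24 had a shared site (4.17%, and 8.33% of 12 with a SOX11 promoter peak). It was at *Itgb1*, the β1 integrin, 57 bp upstream.

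No shared promoter site lay at any of 35 epidermal differentiation genes, 19 SOX family genes or 11 AP-1 subunit genes, among which 5, 1 and 2 genes had a SOX11 promoter peak. Beside the 11.7% of all SOX11-bound genes, these are too few for the absence to be read as a trait of the lists.

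Of the signalling lists, the Hippo pathway had 2 of 23 genes, *Vgll4*, a TEAD cofactor that competes with YAP, and *Tead2*, whose centre lay 15 bp upstream of the nearest start. The Notch pathway had 2 of 30, *Numb*, an inhibitor of Notch, and *Adam17*, a sheddase, at 323 and 46 bp upstream. The Wnt pathway had 2 of 37, the receptor *Fzd2* and the kinase *Gsk3b*, at 791 and 602 bp upstream. The receptor tyrosine kinase and MAPK list had 2 of 42, *Plcg1*, phospholipase Cγ1, at 58 bp upstream with its core on the centre, and the phosphatase *Dusp4* at 117 bp upstream. TGF-beta and SMAD genes had 1 of 26, the activin receptor *Acvr2b*, where SOX4 overlapped SOX11 by only 21 bp. These groups had 7.14% to 22.2% of their SOX11-bound genes shared, around the 11.7% of all genes.

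The cell cycle list had 4 of 53 genes (7.55%), or 19.0% of its 21 with a SOX11 promoter peak. These were *Mcm7*, *Trp53*, *E2f3*, an activator of S-phase genes, and *Ccne2*, cyclin E2. The *Mcm7* and *Trp53* sites were at numbers 56 and 625 of the SOX11 list and those of *E2f3* and *Ccne2* at 7964 and 11428, and each held 1 CTTTGT.

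Housekeeping lists also held shared sites. Cytosolic ribosomal proteins had 7 of 80 (*Rps19*, *Rpl10*, *Rps9*, *Rps15*, *Rpl30*, *Rps7* and *Rps23*) and mitochondrial ribosomal proteins 7 of 76, each 19.4% of the 36 genes with a SOX11 promoter peak. The *Rpl10* site, 421 bp upstream, held 3 cores. Of the 7 mitochondrial sites 5 held no core (*Mrpl51*, *Mrpl13*, *Mrpl45*, *Mrpl42* and *Mrpl20*), as did 2 of the 7 cytosolic ones (*Rps7* and *Rps23*). Splicing factors had 7 of 60 (11.7%), 23.3% of 30, led by *Srsf7*, *Hnrnph3* and *Srsf4*. The translation initiation list had 3 of 58 (5.17%), 11.1% of its 27 with a SOX11 promoter peak. These were *Eif4g2* at number 276 of the SOX11 list, *Eif4e2* and *Eif2c1*. Despite its symbol, *Eif2c1* encodes an Argonaute protein rather than an initiation factor. Proteasome subunits had 2 of 44, *Psme4* and *Psma4*, and core histones 3 of 75.

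Among genes whose binding the study describes, *Tead2*, *Tes* and *Fblim1* had a shared promoter site. *Tead2* and *Fblim1* each also had 1 SOX11-only promoter peak, centred 35 bp downstream and 225 bp upstream of the nearest start. *Tubb3* had a SOX11-only promoter peak, and *Lfng*, *Smad3*, *S100a10*, *Fscn1*, *Lgals1*, *Marcksl1* and *Pxdn* had no SOX11 peak within the promoter window. By ChIP and quantitative PCR, the study found both SOX11-FLAG and SOX4-FLAG at a known site in *Tubb3*. Absence from the SOX4 list thus does not show that SOX4 was unbound at this gene. The paper proposes that its SOX4 data could miss many more sites than its SOX11 data. Among the 29 signature targets, 4 had a shared promoter site (*Limd2*, *Fblim1*, *Tmsb10* and *Tmeff1*), 7 had SOX11-only peaks and 18 had neither. The 4 were 13.8% of the targets, beside 2.54% of all protein-coding genes. They were 36.4% of the 11 targets with a SOX11 promoter peak, beside 11.7% of all genes with one. The study chose these genes on its own binding data, so the count is not independent evidence. *Limd2*, a LIM protein linked to cell motility, had 2 cores in a site centred 145 bp upstream. *Tmeff1*, a transmembrane protein of neural tissue, had 2 cores in a site centred 7 bp upstream.

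The edges of the rule were crowded downstream and sparse upstream. The sites nearest inside the upstream edge were at *Zbtb25* (−993 bp), *Sh3rf2* (−990 bp) and *Gm757* (−955 bp), and the shared peaks nearest outside were at *Gprin1* (−1028 bp), *Thbs1* (−1032 bp) and *Arl6ip6* (−1038 bp). Downstream, *Rpusd2* (98 bp) and *Phrf1* (95 bp) were just inside, and *Cacng2* (101 bp), *Zbtb17* (101 bp) and *Usp22* (102 bp) just outside. The smallest overlaps were 3 bp at *Plscr3*, 11 bp at *Cdk19* and 20 bp at *Eef1a1*, and the SOX11-only promoter sites nearest to a SOX4 peak were 10 bp away at *Snx2*, 11 bp at *2300009A05Rik* and 19 bp at *Dhx30*. In the other direction, 535 of 2669 SOX4 peaks (20.0%) had their own centre in a promoter window, and 514 of these overlapped a SOX11 peak.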

How the data were processed

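The authors aligned the reads by Bowtie2 to mm9, marked and dropped duplicates using Picard, ran HOMER findPeaks (factor style) and subtracted the blacklist with bedtools. The deposited lists give chromosome, start and end in 3 columns, 1 list for each factor, attached to 1 of its 2 samples. They were read as 1 list per factor. Depth is unknown, thresholds and the order of the lists are not given in the sources used here, and the control has no list. Starts were read as 0-based and are printed as 1-based positions in mm9. The centre of each peak was compared with GENCODE M1 starts of protein-coding transcripts, and sequence was read from the mm9 genome. The members and gene lists were chosen with earlier results of these data known. Shares were compared with two-sided Fisher's exact tests (odds ratios with Woolf intervals), and direction with an exact binomial test, adjusted together by Benjamini-Hochberg over 18 tests in scipy 1.17.1, with a threshold of 0.05. Code was tested on simulated data. Genes were named by fixed rules: the 12 sites earliest in the list, the earliest 5 or fewer of each gene list, a few genes fixed by name and the study's signature targets, the 5 sites with most SOX cores, the 3 sites each side of an edge, and the 5 earliest with SOX and AP-1 words. Other names were chosen after their values were seen. Alternatives changed the overlap, window, transcripts, list length, motif, sequence searched and base composition. Some named items are not reported here.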

Additional observations from a re-analysis of the deposited data

How the results depend on the processing

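No paired analysis was possible because each factor has 1 list of peaks, with no values by sample, and for the same reason no replicate could be left out. Of 118 results under alternatives, 89 kept their direction and side of the threshold or, for counts, stayed within 1.5 times. The restriction to the first 2127 SOX11 peaks was added after the data were seen. It left 306 sites at 331 genes by its own construction, and there the odds ratios against SOX11-only promoter sites became 1.81 for the SOX core (adjusted Fisher p = 0.146), 1.17 for centres within 100 bp, 1.31 for CpG-rich sites and 0.93 for divergent starts, and no other motif passed (0). The SOX core in promoters against outside no longer passed with centres within 100 bp (0.75), in the first 10635 peaks of the list (0.72), in the first 2127 (0.82), among CpG-rich sites (0.79) or among the others (0.92). The AP-1 ratio against SOX11-only sites became 0.65 (adjusted Fisher p = 0.0136) with a 10-letter string and 1 mismatch and turned to 1.22 among CpG-rich sites, where that against sites outside promoters turned to 1.35 (adjusted Fisher p = 0.842). CpG-rich ratios crossed 1 with 1 kb on each side (1.13), all transcripts (1.03), a 50% limit (1.06) and the peak itself (1.01), and divergent starts with at least 50% of the peak covered (0.97), the first 10635 peaks (0.96) and 500 bp upstream (1.00). Downstream centres passed with centres within 100 bp (0.73) and turned with 1 kb on each side (1.30, adjusted Fisher p = 0.00215), a window that adds downstream sites by construction. The number of other motifs that passed became 2 (CRE and ETS) with at least 50% of the peak covered, with centres within 100 bp and with 1 kb on each side, and 0 within either class of base composition, and with 50 bp to each side of the centre it stayed at 1 but was SP/KLF in place of ETS. For the other changes the cause was not tested. The lists give no depth, so weak binding of SOX4 at SOX11-only sites was not detectable here.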

Other observations

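The shared promoter sites were unevenly split between the strands of the reference genome: the nearest start was on the + strand at 302 sites and on the − strand at 223, so 57.5% were on +. Over the SOX11-only promoter sites 49.6% were on +. This split was noticed after the values were seen and was not tested. The core read along the gene in 119 of 212 of the sites at + strand genes (56.1%) and in 92 of 152 at − strand genes (60.5%).

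The share of promoter SOX11 peaks that overlapped SOX4 ranged from 6.73% on chromosome 7 (22 shared sites and 305 SOX11-only) to 14.7% on chromosome 4 (48 and 279), with chromosome X at 8.54%. These are counts per chromosome, with no test.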
